A study of Homo sapiens with 84 samples.

Results

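NCI-H647, an established human non-small cell lung cancer line, was exposed for 24 h to RBN-2397 at 30 nM, and 3 libraries of these cells were set against 3 libraries of NCI-H647 cells given the vehicle DMSO for 24 h. These 6 libraries, taken by their labels, are 6 of the 84 in the series, which also holds the line NCI-H1373, the inhibitor RBN012337, other doses and a 6 h time. The sample labels spell the compound RBN012397 and the design text RBN-2397, with the same doses. Further groups used here, of 3 libraries each, are NCI-H647 with RBN-2397 at 10 nM and 300 nM for 24 h, with RBN012337 at 3, 10 and 100 nM for 24 h, with RBN-2397 at 30 nM or DMSO for 6 h, and NCI-H1373 with RBN-2397 at 30 nM or DMSO for 24 h. All cells were plated in wells and left to adhere overnight before exposure, and no group was left without vehicle or compound. Per the labels experiments were done in triplicate, with no record of separate cultures. The tests therefore use the spread between libraries, part of which may be technical, and the response is that of 1 line.

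RBN-2397 inhibits PARP7, the enzyme encoded by TIPARP, which attaches single ADP-ribose units to proteins. TIPARP is itself induced by the aryl hydrocarbon receptor (AHR), a ligand-activated transcription factor, and acts back on it as a brake. PARP7 also restrains the induction of type I interferon by cytosolic nucleic acid sensors. Interferon in turn signals through its receptor, JAK kinases and STAT transcription factors to a set of antiviral interferon-stimulated genes. The comparison asks what the middle of 3 doses does to the transcriptome after 24 h.

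The libraries read the 3' ends of transcripts, and levels are CPM, counts relative to library size, after scaling by the trimmed mean of M-values (TMM). They compare a gene between libraries, not one gene with another. The 30 nM libraries held 4376942, 2803226 and 3735811 counts, and the DMSO libraries 3378615, 4862144 and 1884355, with 1769114 to 6938453 over the 42 NCI-H647 libraries. Within groups, pairs of replicates differed beyond sampling noise, and their chi-square per degree of freedom was 6.17 to 9.9 at 30 nM and 27.8 to 44.1 in DMSO. The DMSO libraries were therefore the less uniform group. Sums of cell type markers are CPM by total counts, without TMM scaling. The summed level of 6 lung epithelial markers was 965 to 1780 CPM at 30 nM and 413 to 739 CPM in DMSO. Leukocyte markers summed to 6.4 to 9.63 CPM at 30 nM and 6.22 to 13.4 CPM in DMSO, with CD3E, CD2, MS4A1, ITGAM and TYROBP at 0 in all 6 libraries. Fibroblast markers summed to 6.06 to 16 CPM at 30 nM and 4.25 to 10.5 CPM in DMSO, and endothelial markers to 5.35 to 8.83 CPM at 30 nM and 1.59 to 3.91 CPM in DMSO with VWF at 0.

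Of 14789 genes tested, 139 (0.94%) passed an adjusted p of 0.05 and are called. With RBN-2397 at 30 nM 103 genes (0.696%) rose and 36 (0.243%) fell, and 2108 had an unadjusted p under 0.05. Members of the interferon-stimulated, cytokine, keratin and mesenchymal lists were among those that rose. Asparagine synthetase, histone genes and the autophagy receptor SQSTM1 were among those that fell. Among the called genes log2 fold changes ran to 5.23 upward and to −4.61 downward. The median over all tested genes was −0.03. Genes that were not called reached further, to 6.58 in the interferon-stimulated list and to −10.23 in the NRF2 list. The CPM of the 3 treated libraries did not overlap that of the 3 DMSO libraries for 2241 of all genes (15.2%) and for 138 of the 139 called.

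**Figure D1:**
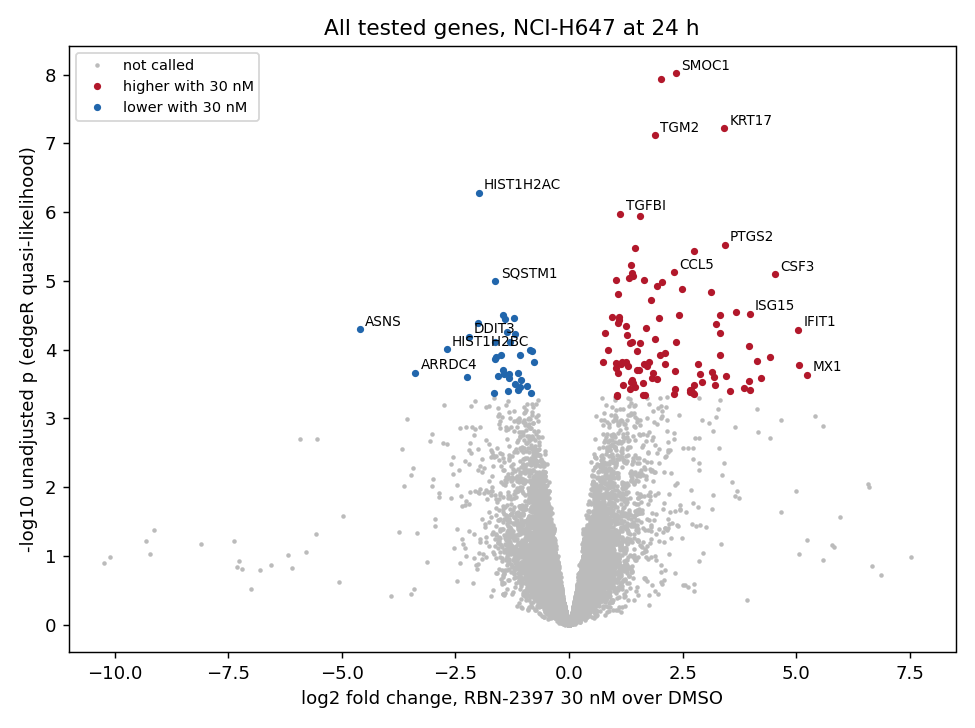
Each point is 1 of the tested genes, with the log2 fold change of RBN-2397 30 nM over DMSO in NCI-H647 at 24 h on the x axis and −log10 of the unadjusted p on the y axis. Red points are the 103 genes called higher and blue points the 36 called lower, grey points were not called, and SMOC1, KRT17 and TGM2 lie near the top.

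How many genes pass depends on single libraries. Leaving out 1 DMSO library gave 972 calls without replicate 1, 18 without replicate 2 and 26 without replicate 3. Leaving out 1 treated library gave 105 calls without replicate 1, 33 without replicate 2 and 13 without replicate 3. All 139 genes kept their sign in these 6 fits, and 7 were called in every one of them, namely KRT17, TGM2, SMOC1, TGFBI, HIST1H2AC, RTEL1-TNFRSF6B and AC023043.1. CSF3, PTGS2, TFPI2, ITGA2 and FLJ22447 were called in 5 of the 6. RTEL1-TNFRSF6B is a readthrough transcript that overlaps its parent genes, so its reads may belong to them.

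Among the lists, that of interferon-stimulated genes, the longest, held the most called genes. Of its 59 tested members 12 rose (20.3%, against 0.696% of all tested genes) and none fell. Not called were 47, and all 59 had a positive log2 fold change, with a median of 1.93. The called share was larger for mesenchymal genes (29.4%), clustered histone genes (26.7%) and interferons and T-cell chemokines (33.3%, 1 of 3 tested). The treated and DMSO libraries did not overlap for 47 of the 59, against 15.2% of all tested genes. The members that rose encode proteins of the oligoadenylate synthetase family (OAS1, OAS2, OAS3 and the synthetase-like OASL) and the antiviral effectors MX1, IFIT1 and IFITM3. The others encode the ubiquitin-like modifier ISG15, and IFI6, IFI27, EPSTI1 and PARP9. Promoters of the 3 genes below are shown because they carry matches to the interferon-stimulated response element, the sequence that STAT and IRF factors bind, among genes that rose. Each is the 160 bases before the RefSeq gene start (GRCh38.p14), written 5′ to 3′ on the gene's strand, with capitals for matches, on either strand, to GAAA, 2 bases of any kind and GAAA again. The windows are chr10:89392463-89392622 (plus strand) for IFIT1, chr1:1013337-1013496 (plus strand) for ISG15 and chr1:27672193-27672352 (minus strand) for IFI6.
IFIT1: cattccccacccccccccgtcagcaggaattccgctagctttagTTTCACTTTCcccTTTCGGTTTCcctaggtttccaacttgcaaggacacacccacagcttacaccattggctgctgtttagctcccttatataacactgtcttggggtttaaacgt
ISG15: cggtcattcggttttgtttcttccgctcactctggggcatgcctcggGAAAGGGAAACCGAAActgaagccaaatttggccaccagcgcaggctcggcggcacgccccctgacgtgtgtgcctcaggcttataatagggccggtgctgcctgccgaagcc
IFI6: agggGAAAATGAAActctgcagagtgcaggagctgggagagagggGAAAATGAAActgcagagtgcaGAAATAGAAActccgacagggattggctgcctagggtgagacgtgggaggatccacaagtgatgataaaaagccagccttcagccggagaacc
IFIT1 had 2 matches, ISG15 had 2 that overlap, and IFI6 had 3. Over 300-base RefSeq windows around gene starts, searched on both strands, the letters occurred in 8 of the 10 interferon-stimulated genes called higher that have a window (80%), in 10 of 73 genes called higher (13.7%), in 0 of 30 called lower, in 300 of 10552 tested genes (2.84%) and in 996 of all 27305 promoters (3.65%). A match is a description of letters, not a bound site.

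IFIT1 (ENSG00000185745.9), which binds viral RNA, measured 119, 316 and 409 CPM at 30 nM and 18.03, 1.72 and 7.06 CPM in DMSO. Its log2 fold change was 5.04 ± 1.06 (SE, n = 3 and 3, adjusted p = 0.0178). MX1, a GTPase that blocks viral replication, measured 169, 404 and 857 CPM at 30 nM and 17.7, 5.51 and 17.1 CPM in DMSO, a log2 fold change of 5.23 ± 1.24 (adjusted p = 0.0352). Treated levels lay above every DMSO level for both genes, and they spread more widely among themselves than for the cytokine genes given further on. ISG15 measured 763, 1489 and 2527 CPM at 30 nM and 155, 38.7 and 113 CPM in DMSO, with a log2 fold change of 3.97 ± 0.80 (adjusted p = 0.0153). IFI6, a mitochondrial protein that opposes apoptosis, measured 376, 726 and 1330 CPM at 30 nM and 62.6, 79.8 and 101 CPM in DMSO, with a log2 fold change of 3.33 ± 0.70 (adjusted p = 0.0184). In these 4 genes treated replicate 1 was the lowest treated library and replicate 3 the highest. The same order held for the list as a whole, whose median log2 CPM was 5.25, 5.85 and 6.38 in treated replicates 1 to 3 and 3.75, 3.41 and 4.13 in the DMSO replicates. The other members that rose had log2 fold changes from 1.37 ± 0.34 (IFITM3) to 5.05 ± 1.16 (OAS2), with 3.95 for OAS1, 3.45 for OAS3, 3.68 for OASL, 4.42 for IFI27, 4.22 for EPSTI1 and 2.93 for PARP9.

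Calls in this list moved with the libraries used. No member was called without treated replicate 3, without DMSO replicate 2 or without DMSO replicate 3. There were 3 calls without treated replicate 2, 16 without treated replicate 1 and 19 without DMSO replicate 1. The list's median log2 fold change stayed between 1.64 and 2.18 in these 6 fits. Members that missed the threshold include CXCL10, a chemokine for T cells, at 4.43 ± 1.29 (adjusted p = 0.0868) and IFI44L at 3.32 (adjusted p = 0.0528).

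**Figure D2:**
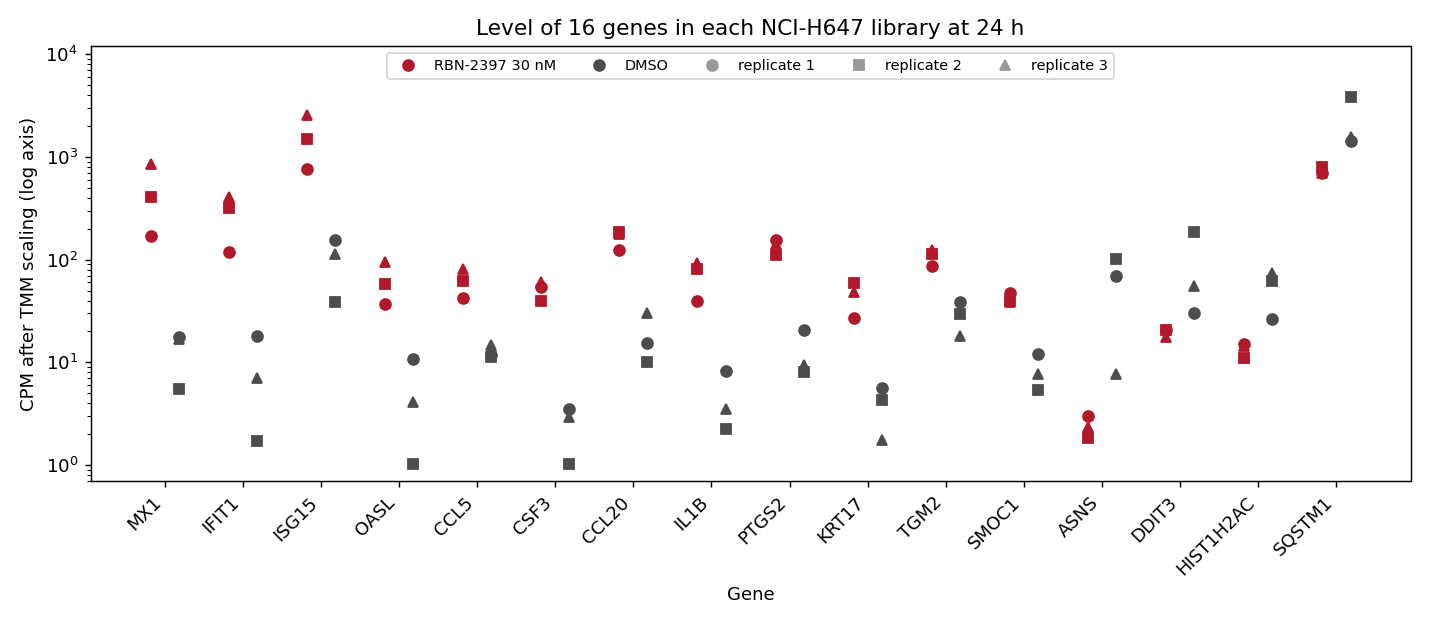
CPM on a log axis of 16 genes in each of the 3 RBN-2397 30 nM libraries (red, left) and the 3 DMSO libraries (grey, right) of NCI-H647 at 24 h, with a marker shape for each replicate. In MX1, IFIT1, ISG15 and OASL treated replicate 1 (circle) is the lowest treated library, and in DDIT3 the DMSO libraries run between 30.0 and 184 CPM while the treated ones lie between 17.7 and 20.8 CPM.

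Interferon genes themselves were at the limit of detection. IFNB1 had 2 counts in all over the treated libraries and 0 over the DMSO libraries, and IFNL1, IFNL2 and IFNL3 had 0 in both groups, where a floor of 3 counts over a group applies. CCL5, a chemokine that recruits T cells, rose, with 42.1, 62.4 and 80.4 CPM at 30 nM and 11.7, 11.4 and 14.7 CPM in DMSO (log2 fold change 2.31 ± 0.44, adjusted p = 0.00771). It was 1 of 3 tested members of the interferon and T-cell chemokine list, whose other members, CXCL10 and CXCL11, were not called and had 3.64 for CXCL11 (adjusted p = 0.198). Among 16 nucleic acid sensing genes AIM2, a sensor of cytosolic DNA, rose with 7.82, 26.0 and 29.4 CPM at 30 nM and 2.85, 3.44 and 2.94 CPM in DMSO, and its log2 fold change was 2.73 ± 0.69 (adjusted p = 0.0474). The RNA sensors DDX58 (RIG-I) at 2.30 and IFIH1 (MDA5) at 2.23 were not called, with adjusted p of 0.087 and 0.102. In MHC class I presentation 1 of 19 tested genes rose, the immunoproteasome subunit PSMB8 (1.06 ± 0.28, adjusted p = 0.0498). HLA-C, a class I heavy chain, stood at 0.59 (adjusted p = 0.313). Of 8 immune checkpoint genes tested IDO1, which breaks down tryptophan, rose at a low level, with 4.598, 6.32 and 10.7 CPM at 30 nM and 0.95, 0.17 and 0 CPM in DMSO (log2 fold change 4.13 ± 0.97, adjusted p = 0.0298). The calls of AIM2, PSMB8 and IDO1 were lost without treated replicate 2 or 3 and without DMSO replicate 2 or 3, and that of CCL5 without treated replicate 3 or DMSO replicate 2.

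The PARP family and the AHR pathway hold the drug's target and its inducer, and 1 of 15 PARP genes and none of 6 AHR pathway genes was called. TIPARP measured 9.20, 13.0 and 14.8 CPM at 30 nM and 10.1, 13.9 and 14.7 CPM in DMSO, groups that overlap, with a log2 fold change of −0.06 ± 0.69 (adjusted p = 0.985). An inhibitor acts on the protein, so this level is no check of the treatment. PARP9, a partner of the ubiquitin ligase DTX3L and itself interferon-inducible, was the PARP gene that rose, with 24.8, 50.9 and 75.7 CPM at 30 nM and 7.28, 4.47 and 9.41 CPM in DMSO. PARP12 stood at 1.93 ± 0.54 (adjusted p = 0.0707). AHR was at 0.47 ± 0.24 (adjusted p = 0.378) and its repressor AHRR at −0.37 ± 0.58 (adjusted p = 0.835). CYP1B1, an AHR target that oxidises hydrocarbons, measured 163, 276 and 206 CPM at 30 nM and 119, 59.2 and 113 CPM in DMSO, groups that do not overlap but differed by 1.16 ± 0.63 with an adjusted p of 0.414. CYP1A1, the classical AHR target, had 0 counts at 30 nM and 3 in DMSO and was not tested. Of 15 AHR targets tested IL1B and PTGS2 rose, which are also inflammatory genes, and the list's median was 0.20.

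**Figure D3:**
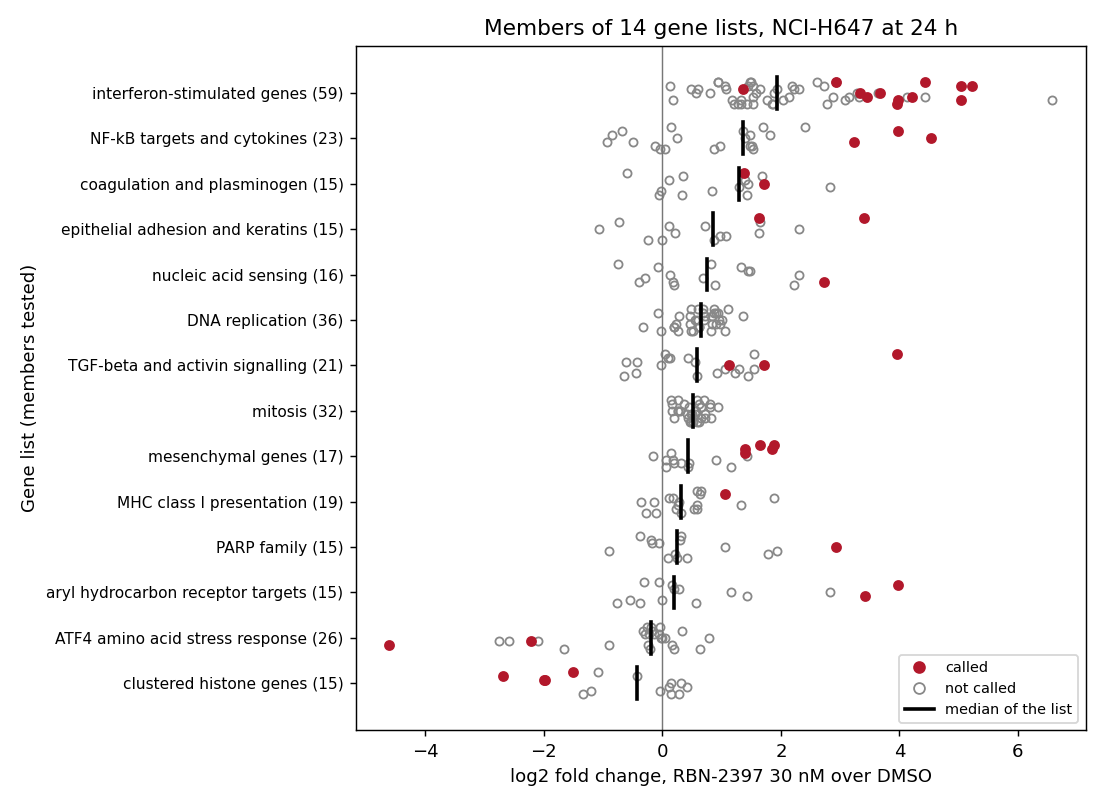
Log2 fold change of RBN-2397 30 nM over DMSO for the tested members of 14 gene lists in NCI-H647 at 24 h, 1 list a row with its number of tested members. Filled red points were called, open points were not, and black bars are list medians, which run between 1.93 for interferon-stimulated genes and −0.43 for clustered histone genes.

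Some inflammatory cytokine genes rose as well. Of 23 tested genes in the NF-kB and cytokine list 3 rose (13%, against 0.696% of all tested genes) and none fell. The other 20 were not called. The list median was 1.36, with 17 positive and 6 negative log2 fold changes, from −0.93 to 4.53. CSF3, the granulocyte colony-stimulating factor, measured 53.6, 39.7 and 60.4 CPM at 30 nM and 3.48, 1.03 and 2.94 CPM in DMSO (log2 fold change 4.53 ± 0.84, adjusted p = 0.00771). CCL20, a chemokine for cells that carry CCR6, measured 125, 184 and 179 CPM at 30 nM and 15.5, 9.98 and 30.0 CPM in DMSO (3.23 ± 0.67, adjusted p = 0.016). IL1B, the precursor of interleukin-1 beta, measured 39.3, 80.6 and 93.4 CPM at 30 nM and 8.22, 2.24 and 3.53 CPM in DMSO (3.97 ± 0.99, adjusted p = 0.0454). For these 3 genes each treated library exceeded each DMSO library, and the 2 groups were apart for 138 of the 139 called genes. IL6 was at 2.41 ± 0.66 and was not called (adjusted p = 0.0671). PTGS2, the inducible cyclooxygenase of prostaglandin synthesis, rose with 157, 112 and 142 CPM at 30 nM and 20.9, 8.09 and 9.41 CPM in DMSO (3.42 ± 0.59, adjusted p = 0.00543). It was the only 1 of 9 prostaglandin synthesis genes called. CXCL12, a chemokine that binds CXCR4, had 19 counts over the treated libraries and 1 over the DMSO libraries, a ratio of 18.6 with a 95% counting interval of 2.96 to 774. CSF3 and PTGS2 lost their calls only without DMSO replicate 2 among the 6 libraries, CCL20 without treated replicate 2 or 3 or DMSO replicate 2, and IL1B without any of these or DMSO replicate 3. With 1 library left out, CXCL12 kept its call only when it was DMSO replicate 1. The CCL20 promoter is shown because it carries matches, in capitals, to the NF-kB letters GGG, 2 bases of any kind, TT, 1 base of any kind and CC in the 160 bases before its start (chr2:227813682-227813841, plus strand, GRCh38.p14).
CCL20: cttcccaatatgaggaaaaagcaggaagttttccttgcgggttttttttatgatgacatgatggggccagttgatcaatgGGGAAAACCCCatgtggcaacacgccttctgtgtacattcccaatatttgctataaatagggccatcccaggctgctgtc
The stretch in capitals holds 2 overlapping matches, both read on the strand opposite to the one printed. These letters occurred in 7 of 73 genes called higher with a window (9.59%) and in 705 of 10552 tested genes (6.68%).

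Members of the epithelial and mesenchymal lists were among the genes that rose, and SMOC1 and TNS4, which belong to no list, are given with them. KRT17, a stress-inducible epithelial keratin, measured 27.1, 59.8 and 48.7 CPM at 30 nM and 5.69, 4.30 and 1.76 CPM in DMSO (log2 fold change 3.41 ± 0.49, adjusted p = 0.000283). KRT81 measured 4167, 6510 and 5808 CPM at 30 nM and 2888, 531 and 1885 CPM in DMSO (1.64 ± 0.38, adjusted p = 0.0298), though its reads may be shared with its near-identical neighbour KRT86. These were 2 of 15 tested members of the epithelial adhesion and keratin list, with a median of 0.86. Of the 15, 11 had a positive and 4 a negative log2 fold change, from −1.08 to 3.41. In the mesenchymal list 5 of 17 tested genes rose, COL4A2, COL5A1, FN1, TAGLN and TGM2, and none fell, with a median of 0.44. TGM2, a transglutaminase that crosslinks matrix proteins, measured 86.7, 113 and 125 CPM at 30 nM and 38.6, 29.8 and 18.2 CPM in DMSO (1.88 ± 0.29, adjusted p = 0.000283). FN1, fibronectin, measured 280, 358 and 426 CPM at 30 nM and 148, 108 and 80.6 CPM in DMSO (1.65 ± 0.32, adjusted p = 0.00771). The mesenchymal members that rose are matrix, cytoskeletal and crosslinking genes, and 2 members of the epithelial list, both keratins, rose in the same libraries. SMOC1, a secreted calcium-binding matrix protein, measured 46.9, 39.4 and 38.3 CPM at 30 nM and 12.02, 5.33 and 7.64 CPM in DMSO (2.35 ± 0.33, adjusted p = 8.64e-05). TNS4, an adhesion scaffold, rose by 3.54 ± 0.88 on the log2 scale (adjusted p = 0.0458). KRT17, TGM2 and SMOC1 were called whichever of the 6 libraries was left out. KRT81, COL5A1 and TNS4 lost their calls without treated replicate 2 or 3 or DMSO replicate 2 or 3, FN1 without treated replicate 3 or DMSO replicate 2 or 3, and COL4A2 without DMSO replicate 2 or 3.

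Genes tied to TGF-beta and to coagulation rose in part. INHBA, the activin A subunit, measured 40.2, 32.7 and 54.1 CPM at 30 nM and 4.11, 1.89 and 2.35 CPM in DMSO (log2 fold change 3.96 ± 0.96, adjusted p = 0.0388). TGFBI, a matrix protein induced by TGF-beta, measured 1136, 1311 and 1376 CPM at 30 nM and 685, 591 and 475 CPM in DMSO (1.12 ± 0.20, adjusted p = 0.00242). Both belong to the TGF-beta and activin list, whose 21 tested members had a median of 0.59. TFPI2, a protease inhibitor of the coagulation cascade, measured 98.6, 110 and 123 CPM at 30 nM and 37.0, 45.9 and 44.7 CPM in DMSO (1.38 ± 0.27, adjusted p = 0.00771), and belongs to the coagulation list, whose 15 tested members had a median of 1.30. ALDH1A1, which makes retinoic acid from retinal, was the only 1 of 16 aldehyde dehydrogenase genes called, at 14.7, 15.2 and 18.2 CPM at 30 nM and 5.38, 2.58 and 1.18 CPM in DMSO. TGFBI was called whichever of the 6 libraries was left out, and TFPI2 lost its call only without treated replicate 3. Of the fits with 1 library left out, INHBA and ALDH1A1 were called only in that without DMSO replicate 1.

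ASNS, asparagine synthetase and a target of the amino acid stress factor ATF4, had the largest fall among the genes called. ASNS (ENSG00000070669.16) measured 2.99, 1.86 and 2.34 CPM at 30 nM and 69.3, 100.5 and 7.64 CPM in DMSO (log2 fold change −4.61 ± 0.97, adjusted p = 0.0178). The treated libraries were uniform, and DMSO replicate 3 lay far below the other DMSO libraries. The call was lost without any 1 of the treated libraries and without DMSO replicate 2, with adjusted p of 0.0542 to 0.132. The ASNS promoter is shown because it carries the C/EBP-ATF response element through which ATF4 acts, with the match of TGATGNAA in capitals (chr7:97872409-97872568, minus strand, GRCh38.p14, 160 bases before the start).
ASNS: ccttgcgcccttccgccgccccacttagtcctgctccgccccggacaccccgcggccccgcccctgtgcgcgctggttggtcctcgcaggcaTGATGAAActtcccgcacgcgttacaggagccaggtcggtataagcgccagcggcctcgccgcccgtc
The letters occurred in 1 of 30 genes called lower with a window (3.33%) and in 178 of 10552 tested genes (1.69%). DDIT3, the stress transcription factor CHOP, fell too, with 20.7, 20.8 and 17.7 CPM at 30 nM and 30.0, 184 and 55.9 CPM in DMSO (−2.21 ± 0.48, adjusted p = 0.0196). These were 2 of 26 tested ATF4 genes and the list's median was −0.19. SESN2, at 8.28, 8.92 and 10.9 CPM at 30 nM and 13.0, 156 and 15.3 CPM in DMSO, and TRIB3, at 9.43, 12.3 and 10.4 CPM at 30 nM and 14.9, 106 and 9.41 CPM in DMSO, were not called, with adjusted p of 0.0587 and 0.0839. In these 3 genes DMSO replicate 2 was the highest library. Its ATF4 list level, a median log2 CPM, was 6.40, against 5.26 and 4.83 in DMSO replicates 1 and 3 and 4.86 to 5.07 in the treated libraries. The part of that library in the falls was measured only by leaving it out, after which the log2 fold change was −3.99 for ASNS and −1.08 for DDIT3, neither called. DDIT3 also lost its call without any 1 of the treated libraries.

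Histone genes that make polyadenylated transcripts, which 3' libraries can read, fell in part. Of 15 tested clustered histone genes 4 fell and none rose, with a median of −0.43. HIST1H2AC measured 14.9, 11.1 and 14.3 CPM at 30 nM and 26.6, 61.8 and 74.7 CPM in DMSO (log2 fold change −1.99 ± 0.33, adjusted p = 0.00154). HIST1H2BC fell by 2.70 on the log2 scale (SE 0.61, adjusted p = 0.0251), HIST1H2BD by 1.51 (SE 0.35, adjusted p = 0.0262) and HIST1H4H by 2.00 (SE 0.43, adjusted p = 0.0158). HIST1H4H is the called gene whose groups overlap, with 2.30, 5.94 and 2.34 CPM at 30 nM and 4.11, 19.1 and 17.6 CPM in DMSO. HIST2H2AA4 also fell (−1.55 ± 0.38), and its reads may belong to a near-identical copy. Of these genes HIST1H2AC was called whichever of the 6 libraries was left out, and HIST1H2BC, HIST1H2BD and HIST2H2AA4 only when DMSO replicate 1 was. HIST1H4H lost its call without treated replicate 1 or 3 or DMSO replicate 2 or 3. For all 5 genes DMSO replicate 1 was the DMSO library nearest to the treated ones.

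Among other falls, SQSTM1, the autophagy receptor p62, measured 702, 801 and 693 CPM at 30 nM and 1428, 3781 and 1556 CPM in DMSO (log2 fold change −1.62 ± 0.32, adjusted p = 0.00771). OSGIN1, an oxidative stress growth inhibitor, measured 44.8, 48.3 and 35.7 CPM at 30 nM and 101, 197 and 96.4 CPM in DMSO (−1.63 ± 0.36, adjusted p = 0.0214). It was the only 1 of 22 tested NRF2 targets called, and the list's median was −0.01. Without DMSO replicate 2, the highest library for both genes, neither was called, and their log2 fold changes were −1.01 for SQSTM1 and −1.19 for OSGIN1. SQSTM1 was also lost without treated replicate 3, OSGIN1 without any 1 of the treated libraries, and with 1 library left out LY96 and ARRDC4 were called only when it was DMSO replicate 1. LY96, the MD-2 partner of the endotoxin receptor TLR4, fell by 1.64 on the log2 scale. AHCYL2, TTC14, ADPRHL1 and SNX29 fell by 1.66, 1.61, 1.46 and 1.46. AHCYL2, TTC14 and SNX29 were each called in only 1 of the 6 fits with 1 library left out, and ADPRHL1 in 3. ARRDC4, an arrestin-domain protein, had 3 counts over the treated libraries and 32 over the DMSO libraries, a DMSO to treated ratio of 10.9 with a 95% counting interval of 3.40 to 55.5.

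Cell cycle genes had positive differences and no call. The 36 DNA replication genes had a median log2 fold change of 0.65 with 33 positive, and the 32 mitosis genes a median of 0.51 with all 32 positive. The treated and DMSO libraries were apart for only 3 of the 36 and 4 of the 32, while they were apart for 15.2% of all tested genes. The replication list, as median log2 CPM, stood at 5.89, 5.95 and 5.74 in the treated libraries and at 5.89, 4.08 and 4.81 in DMSO. The mitosis list stood at 6.61, 6.59 and 6.47 in the treated libraries and at 6.55, 5.27 and 5.58 in DMSO. DMSO replicate 1 was thus level with the treated libraries and the other DMSO libraries lay below them. Without DMSO replicate 1, 22 of the 36 replication genes and 10 of the 32 mitosis genes were called, with medians of 1.30 and 1.02. That fit called 972 genes in all, and it leaves out the DMSO library that was level with the treated ones. MCM4, a helicase subunit, showed the same pattern, with 126, 106 and 120 CPM at 30 nM and 109, 30.3 and 39.4 CPM in DMSO (0.98 ± 0.29, adjusted p = 0.0854). The 20 lists with no called member had medians of −0.56 to 1.64, the highest being that of squamous differentiation with 1 gene tested.

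**Figure D4:**
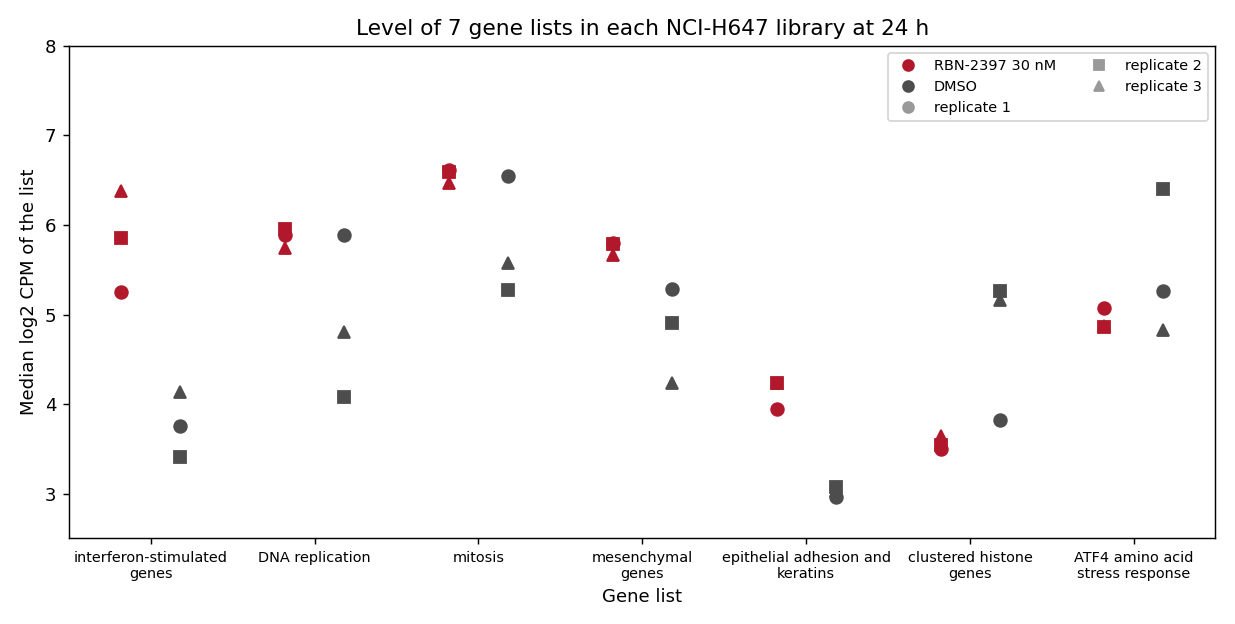
Median log2 CPM of 7 gene lists in each RBN-2397 30 nM library (red, left) and each DMSO library (grey, right) of NCI-H647 at 24 h, with a marker shape for each replicate. DMSO replicate 1 (circle) lies level with the treated libraries in DNA replication and mitosis, whereas the 2 groups are apart in interferon-stimulated genes, at 5.25 to 6.38 and 3.41 to 4.13.

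At 24 h no gene was called between 30 nM and 10 nM (0% of 14789, 168 with an unadjusted p under 0.05, 2 called by DESeq2) or between 30 nM and 300 nM (0%, 175 with an unadjusted p under 0.05, 4 called by DESeq2). For MX1 the log2 fold change over DMSO was 5.04 ± 1.23 at 10 nM, 5.23 ± 1.24 at 30 nM and 5.51 ± 1.25 at 300 nM. All 3 doses share the DMSO libraries, so these values share their error. The direct difference of MX1 between 30 nM and 10 nM had a 95% interval of −1.83 to 2.21 on the log2 scale, and between 30 nM and 300 nM of −2.30 to 1.74, so differences of several fold are within it. For TGM2 the intervals were narrower, −0.51 to 0.58 against 10 nM and −0.81 to 0.27 against 300 nM. KRT17 gave −0.82 to 0.78 against 10 nM and −1.06 to 0.55 against 300 nM, and ASNS −3.18 to 0.94 and −2.16 to 2.34. The median of the interferon-stimulated list was 1.87 at 10 nM, 1.93 at 30 nM and 2.14 at 300 nM. The genes with the smallest p between 30 nM and 10 nM were PRSS53, WASHC1 and WAC-AS1, and between 30 nM and 300 nM AL357140.2, DIABLO and AL133387.2, none of which passed.

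**Figure D5:**
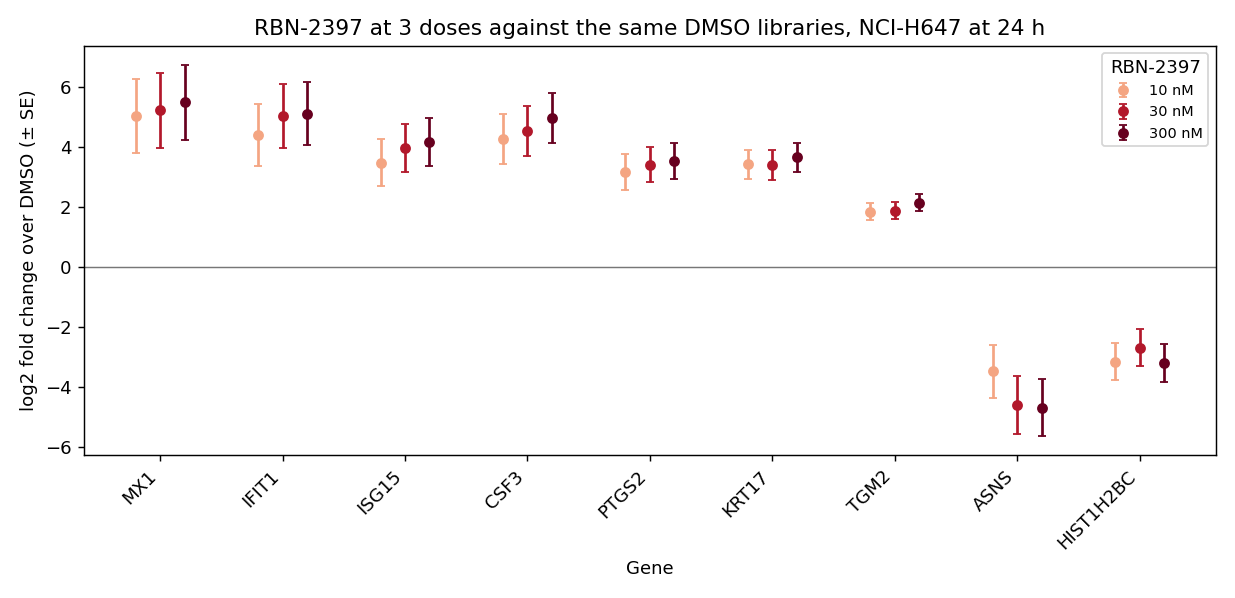
Log2 fold change over DMSO, with its SE as the bar, for 9 genes of NCI-H647 at 24 h at 10, 30 and 300 nM RBN-2397, low to high and left to right. All 3 doses use the same 3 DMSO libraries, and in each gene the bars of the 3 doses overlap, as for KRT17 at 3.43, 3.41 and 3.66.

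RBN012337, another PARP7 inhibitor of the series, was used at 3, 10 and 100 nM, doses that differ from 30 nM, so its values stand beside those of RBN-2397 without a comparison. The log2 fold change of MX1 over the same DMSO libraries was 4.18, 3.74 and 4.83 at these doses, and 5.23 with RBN-2397 at 30 nM. MX1 was called at none of these RBN012337 doses, with adjusted p of 0.0847, 0.321 and 0.175. For CSF3 it was 3.91, 3.81 and 4.28 with RBN012337 and 4.53 with RBN-2397 at 30 nM. For KRT17 it was 3.11, 2.82 and 2.73 with RBN012337 and 3.41 with RBN-2397 at 30 nM. ASNS stood at −4.80, −4.45 and −3.44 with RBN012337 and at −4.61 with RBN-2397 at 30 nM. With RBN012337 KRT17 was called at all 3 doses, and CSF3 at 3 and 100 nM but not at 10 nM (adjusted p = 0.0529). ASNS was called at 3 and 10 nM but not at 100 nM (adjusted p = 0.175).

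The same dose was set against the DMSO of its own time at 24 h and at 6 h, and the change with time passed for no gene (0% of 14789, 699 with an unadjusted p under 0.05, 7 called by DESeq2). The interferon-stimulated list had a median log2 fold change of 1.93 at 24 h and 0.10 at 6 h. Medians of other lists were higher at 6 h, with 0.20 at 24 h and 0.86 at 6 h for the AHR targets and 0.15 at 24 h and 0.51 at 6 h for ERK output. AHR had log2 fold changes of 0.47 at 24 h and 0.74 at 6 h, CYP1B1 of 1.16 at 24 h and 1.36 at 6 h, and AHRR of −0.37 at 24 h and 0.98 at 6 h, none called at either time. MX1 stood at 5.23 at 24 h and 1.04 at 6 h, a difference of 4.19 with a 95% interval of 0.66 to 7.72 (adjusted p = 0.972). KRT17 stood at 3.41 at 24 h and 0.74 at 6 h, a difference of 2.66 with an interval of 1.36 to 3.97 (adjusted p = 0.499). IL1B was at 3.97 at 24 h and 3.20 at 6 h, a difference of 0.77 with an interval of −1.86 to 3.40. SMOC1, AC023043.1 and AL365356.5 had the smallest p, with adjusted p of 0.316 each, and SMOC1 stood at 2.35 at 24 h and 0.47 at 6 h. None of MX1, IFIT1, KRT17, IL1B, SMOC1, TGM2 or ASNS was called at 6 h, where the adjusted p of each was 1.

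The response was set against that of NCI-H1373 cells given the same dose for 24 h. The test of the difference between the lines called 1 of 16177 genes (0.00618%), while 917 had an unadjusted p under 0.05. That gene, SPANXC, a member of a near-identical X-linked family, was not called in NCI-H647 (adjusted p = 0.788), with 13.8, 14.1 and 15.1 CPM at 30 nM and 13.0, 6.37 and 17.6 CPM in DMSO. In NCI-H1373 it was at 0 in all 3 treated libraries and at 8.80, 3.59 and 0 CPM in DMSO. In the fit of both lines IFIT1 had a log2 fold change of 5.04 in NCI-H647 and 5.005 in NCI-H1373, a difference of 0.04 ± 1.24 (SE). TGM2 had 1.90 in NCI-H647 and 1.86 in NCI-H1373, a difference of 0.04 ± 0.48. KRT17 had 3.43 in NCI-H647 and 4.17 in NCI-H1373, a difference of −0.74 ± 1.12, and ASNS had −4.58 in NCI-H647 and −4.62 in NCI-H1373, a difference of 0.04 ± 1.32. These standard errors leave room for differences of about 2-fold for TGM2 and of more than 2-fold for IFIT1, KRT17 and ASNS. TFPI2 came next to the threshold, with 1.40 in NCI-H647 and −1.81 in NCI-H1373, a difference of 3.22 ± 0.66 (adjusted p = 0.0564). In NCI-H1373 TFPI2 was near the floor, at 0.92, 2.59 and 1.25 CPM with 30 nM and 6.13, 5.13 and 0 CPM in DMSO. Its fall in that line was not called (adjusted p = 0.0818). PTGS2 had 3.44 in NCI-H647 and −3.12 ± 1.61 in NCI-H1373, with an adjusted p of 0.198 for the difference. In NCI-H1373 PTGS2 was not called (adjusted p = 0.332). FN1 had 1.67 in NCI-H647 and 0.07 in NCI-H1373, with an adjusted p of 0.825 for the difference. The median of the 59 interferon-stimulated genes was 1.97 in NCI-H647 and 1.45 in NCI-H1373 in that fit, and the difference of the medians was not tested. The shallowest NCI-H1373 library of this comparison, DMSO replicate 3, held 630654 counts.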

How the data were processed

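The authors deposited 1 table of estimated counts (expected counts) for each gene and library, without normalization. It comes, per the submitters’ processing notes, from Salmon 0.11.27 and hg38. The sources used here do not give the annotation, the use of molecular identifiers or that of strand, so reads of near-identical, overlapping or antisense genes may be shared. Of nonzero values 49.4% were not whole (tolerance 1e-06), and values were rounded. Names came from GENCODE 29 for 57845 of 57964 genes.

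The 42 NCI-H647 libraries (14 groups, 28 residual degrees of freedom) were fitted together in edgeR 4.0.16 (R 4.3.3) with filterByExpr, TMM and the robust quasi-likelihood F test. P-values were adjusted by Benjamini-Hochberg over 14789 genes, at 0.05. The line difference used all 84 libraries and 16177 genes. SE is the log2 fold change over the square root of F. The analysis was also run on simulated counts with added changes. These were drawn independently for each gene and library, so they hold no shift shared by many genes of a library. They therefore cannot show how such shifts move the calls. Alternatives were DESeq2 1.42.0, other scaling, filters, library sets, a replicate block and leaving out each library. Counting intervals (95%) cover counting error only, since amplified duplicates may be counted. Named genes are the 15 largest rises and falls among called protein-coding genes with a mean of at least 5 counts and no overlap, 4 per list by adjusted p, and TIPARP, AHR, AHRR, CYP1A1 and CYP1B1. Others named were chosen after their values were seen. Members and lists were chosen with earlier results of these data known. Some genes that the naming rule selects are not reported here.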

Additional observations from a re-analysis of the deposited data

Results flagged for a closer look

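The response of SPANXC to 30 nM RBN-2397 differed between the lines by 7.59 ± 1.47 on the log2 scale (NCI-H647 minus NCI-H1373, edgeR quasi-likelihood interaction, adjusted p = 0.0378), the 1 gene for which the test of the difference itself passed. Its log2 fold change was 0.31 in NCI-H647 and −7.28 in NCI-H1373. The NCI-H1373 value is a fitted one against treated libraries that are all at 0 and depends on the prior count, and 1 of the 3 DMSO libraries of that line is also at 0. Reads of this gene may be shared with near-identical family members, which was not tested. No gene was called in the line comparison without any 1 of the treated libraries of either line or without DMSO replicate 2 of NCI-H647.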

How the results depend on the processing

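The count of 139 genes for 30 nM against DMSO became 142 with DESeq2's size factors in edgeR, 181 with a stricter filter, 629 with no filter, 365 with DESeq2, 54 with only the 6 compared libraries and 50 with the 21 libraries of 24 h. Shared with the 139 were 137, 133, 135, 134, 34 and 36 genes in these settings. Leaving out 1 library gave 13 (treated replicate 3) to 972 (DMSO replicate 1) calls. The fit with a replicate block gave 488 calls, which include all 139. Same-numbered treated and DMSO libraries correlated by 0.091, 0.035 and 0.036 in their deviations, and the samples share only a number. Number 1 and number 2 correlated best with their own number in the treated libraries, number 3 did not.

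With no filter there were 46 calls against 10 nM, 45 against 300 nM, 138 for time and 96 for line. With only the compared libraries there were 3 calls against 300 nM and 2 for line, and with the block 5 for time and 16 for line. DESeq2 gave 2 calls against 10 nM, 4 against 300 nM, 7 for time and 16 for line. Leaving out 1 library gave 0 calls against 10 nM and against 300 nM, 0 to 13 for time and 0 to 15 for line, both highest without DMSO replicate 1 of NCI-H647 at 24 h. The cause was not tested.

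Over 13 settings, named genes gave 977 values on the same side of the threshold, 233 no longer past it, 88 newly past it and 5 with the other sign, all in genes not called. With 1 library left out TIPARP ran from −0.21 to 0.14, with 0.037 without DMSO replicate 2 and 0.029 without DMSO replicate 3, PDCD1LG2 from −0.60 to 1.68 and SPANXC from −0.052 to 0.63. The shallowest DMSO library held 1884355 counts, and how depth limits the detection of low genes was not tested.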

Other observations

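Beyond the lists, 100 of the 139 called genes belong to none of them. The genes of this paragraph were chosen after their values were seen. Secreted and matrix genes with calls include PAPPA, a protease that cleaves IGF-binding proteins, with 53.1, 82.5 and 95.8 CPM at 30 nM and 18.7, 10.7 and 11.8 CPM in DMSO (log2 fold change 2.49 ± 0.48, adjusted p = 0.0089). IGFBP4, an IGF-binding protein, measured 530, 491 and 519 CPM at 30 nM and 261, 135 and 74.7 CPM in DMSO (1.70 ± 0.37, adjusted p = 0.017). STC1, a secreted glycoprotein, measured 31.7, 23.4 and 32.3 CPM at 30 nM and 9.81, 6.37 and 7.06 CPM in DMSO (1.92 ± 0.38). VCAN, the proteoglycan versican, rose by 1.75 ± 0.41 on the log2 scale, and COL6A1, a collagen VI chain, by 1.04 ± 0.21. The collagen receptor subunits ITGA2 and ITGA11 rose by 1.46 ± 0.27 and 1.54 ± 0.38. ITGA2 measured 154, 132 and 191 CPM at 30 nM and 59.8, 54.4 and 60.0 CPM in DMSO, groups well apart. Of the 6 fits with 1 library left out, ITGA2 was called in 5, COL6A1 in 4, and PAPPA and STC1 in 3. IGFBP4 and VCAN were called in 2 of these fits and ITGA11 in 1.

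Among genes that fell outside the lists, EIF1, a translation initiation factor, measured 1105, 1016 and 972 CPM at 30 nM and 1334, 2652 and 1935 CPM in DMSO (−0.94 ± 0.24, adjusted p = 0.043). The lysosomal genes LGMN, IDS and ATP6V1A fell by 1.13, 0.82 and 0.76 on the log2 scale. IDS measured 68.5, 55.7 and 75.7 CPM at 30 nM and 84.8, 143 and 126 CPM in DMSO. EIF1, LGMN, IDS and ATP6V1A were each called in only 1 of the 6 fits with 1 library left out.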
